A study of Mus musculus with 13 samples.

Results

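The genes described here are 10 members of the colony-stimulating factor system and its related myeloid growth receptors. They are the ligands Csf1, Il34 and Csf2, the CSF1 receptor Csf1r, the GM-CSF receptor chains Csf2ra, Csf2rb and Csf2rb2, the G-CSF receptor Csf3r, and the receptor tyrosine kinases Flt3 and Kit. They were picked by symbol for their known roles, with no measured value in the rule, although earlier results of these data were known by then. All 10 of 10 symbols were found among the 31053 genes of the single-cell matrix. The question asked of them was which lung cell classes carried each ligand and each receptor, and how these levels varied between libraries.

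Lungs of C57BL/6 mice were broken up with proteases and the RNA of their single cells was counted. By title and disease state, 4 samples are Asthma (a model induced with ovalbumin), Control, PPE-emphysema (repeated airway instillation of porcine pancreatic elastase) and PPE-recovery (a model of recovery from the elastase-induced disease), each from 1 mouse according to the figure legend. The labels name no transgene, deletion or age for any of these groups. A further 9 samples, 3 each of Acute injury, Con and emphysema, had no separate file analysed here. The deposited matrix pools 7 libraries that are told apart only by a number on the barcode, and no label ties a number to a group, so the matrix was treated as 1 sample, no group was compared with another and no p-value is given. Values are therefore given per numbered library, and intervals are exact 95% intervals that cover counting error only.

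Colony-stimulating factors are secreted glycoproteins that keep myeloid cells alive and drive their growth and maturation. CSF1 (M-CSF) and IL-34 both signal through CSF1R and maintain monocytes and many tissue macrophages, whereas CSF2 (GM-CSF) signals through a specific alpha chain paired with a shared beta chain and is required for alveolar macrophages to mature and clear surfactant. G-CSF acts on neutrophils through CSF3R, FLT3 supports dendritic cell progenitors and their progeny, and KIT, the stem cell factor receptor, is known for its roles in blood progenitors, mast cells and some endothelial cells.

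After barcodes with more than 10% mitochondrial UMIs (unique molecular identifiers, counted once for each captured transcript) were removed, 33618 of 37344 barcodes remained, between 2992 and 7626 per library, with a median of 6684.5 UMIs per cell. Levels are given as CPM, the UMIs of a gene per 1000000 UMIs of the class, which scales out the depth of the cells. The cells fell into 46 clusters, which were assigned to 30 classes by marker genes, and the 10 members were kept out of the clustering and of the markers. Libraries 4, 5 and 6 stood apart: Sftpc, the surfactant protein made by alveolar type 2 cells, was at 0 to 0.0660 CPM there and at 2674 to 9212 CPM in the other 4, whereas the hemoglobin gene Hba-a1 was at 77157 to 94584 CPM in libraries 4, 5 and 6. By these markers the 3 libraries lacked the lung epithelium that the lung label implies, and the levels below are given for each library. A total of 123 barcode sequences occurred in more than 1 library among the kept cells, and 246 cells carried one.

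The members lie on 8 chromosomes, and only Csf2rb and Csf2rb2 are neighbours. In GRCm38 coordinates with GENCODE M21 genes, Csf2rb spans chr15:78325752-78353847 on the plus strand and Csf2rb2 spans chr15:78282507-78305721 on the minus strand. The ligand genes are Csf1 at chr3:107741048-107760469, Il34 at chr8:110741829-110805924 and Csf2 at chr11:54247271-54249667, all on the minus strand. Of the other receptors, Csf2ra is at chr19:61223957-61228429, Csf3r at chr4:126024550-126044440, Flt3 at chr5:147330741-147400489 and Kit at chr5:75574916-75656722.

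Csf1, Csf2rb and Csf2rb2 were highest in the same class, the basophil-like cells, and the promoter windows of Csf1 and Csf2rb2 are shown for that reason. The windows are from RefSeq (GRCm38.p6), written 5′ to 3′ on the minus strand of each gene, from 250 bases before to 50 bases from the start of the transcript. They cover chr3:107760420-107760719 for Csf1 and chr15:78305672-78305971 for Csf2rb2. Capitals mark the only match to GAGGAAGT, a purine-rich sequence of the kind bound by the myeloid factor PU.1, on either strand. 
Csf1: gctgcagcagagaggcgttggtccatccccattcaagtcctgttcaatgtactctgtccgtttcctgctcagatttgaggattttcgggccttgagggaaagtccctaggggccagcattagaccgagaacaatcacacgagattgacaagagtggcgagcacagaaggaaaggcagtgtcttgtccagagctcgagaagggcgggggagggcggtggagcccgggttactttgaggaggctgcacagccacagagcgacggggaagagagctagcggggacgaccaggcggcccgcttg
Csf2rb2: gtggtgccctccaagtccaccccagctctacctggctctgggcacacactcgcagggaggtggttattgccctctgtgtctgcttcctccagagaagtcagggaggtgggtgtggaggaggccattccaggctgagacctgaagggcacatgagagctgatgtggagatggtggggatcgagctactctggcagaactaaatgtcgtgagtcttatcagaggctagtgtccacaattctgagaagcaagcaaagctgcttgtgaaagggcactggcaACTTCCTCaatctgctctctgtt
The match in Csf2rb2 began 28 bases into the transcript and read as the motif on the opposite strand. The motif was in 1052 of 32851 RefSeq promoter windows of this length (3.20%), and no match was found in the windows of Csf1, Csf2, Csf2ra, Csf3r, Flt3 or Kit. Csf2rb, Il34 and Csf1r were not searched. A match is a description of these letters, not a binding site.

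Of the 10 members, 9 reached 20 CPM and 20 UMIs in their highest class, and 5 of these 9 had a leading class, defined as a class with at least 2 times the level of the next. The same was true of 2617 of 11338 genes of the matrix that passed the same minimum (23.1%). The 5 were Csf1, Csf2rb and Csf2rb2 in basophil-like cells, Csf3r in neutrophil-like cells and Kit in general capillary endothelial cell-like cells, with ratios to the next class of 4.02, 2.71, 3.73, 8.11 and 2.63. The same 5 led without libraries 4 to 6, while without library 7 the lead of Csf1 fell to 1.45 times the eosinophil-like class, where 48 Csf1 UMIs were in 1 cell. For Csf1r, Csf2ra, Flt3 and Il34 the highest class was 1.24, 1.24, 1.62 and 1.79 times the next. Without library 7 the order turned for Csf2ra (0.907 times the eosinophil-like class, where 10 Csf2ra UMIs were in 1 cell). Csf2 did not reach the minimum, at 17.8 CPM in its highest class.

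**Figure D1:**
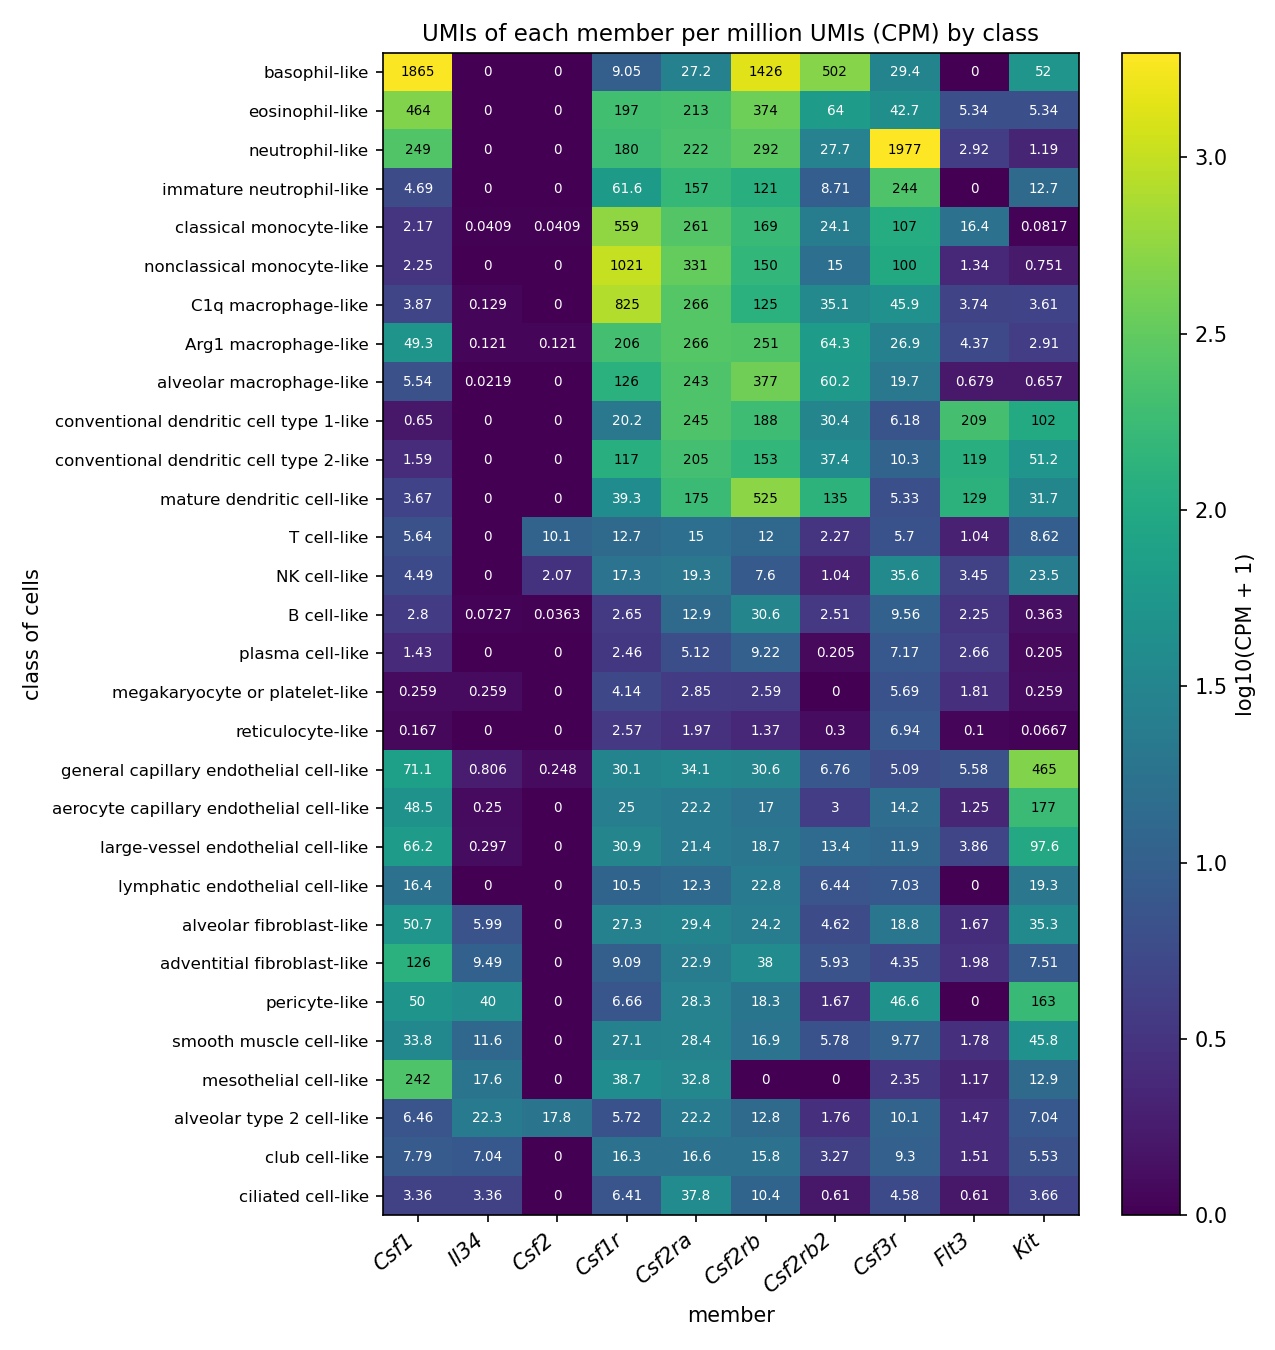
Heat map of the level of each of the 10 members (columns) in the 30 classes (rows), with color giving log10(CPM + 1) over the cells of all libraries. The receptors Csf1r, Csf2ra and Csf2rb are spread over many myeloid classes, while Csf3r stands out in the neutrophil-like row, Kit in the capillary rows and Csf1 in the basophil-like row.

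Csf1, the main ligand of CSF1R, had the highest level in basophil-like cells, at 1865 CPM (1739 to 1996) from 824 UMIs in 98 cells. Library 1 gave 1716 CPM and library 2 gave 1666 CPM, the only libraries with at least 20 such cells, so these lay close together. The smaller numbers of basophil-like cells gave 1989 CPM in library 3 (17 cells) and 3984 CPM in library 7 (11 cells). Libraries 4, 5 and 6 gave 321, 750 and 362 CPM from only 2, 7 and 5 cells. Their Csf1 UMIs were 7, 26 and 9, and 6 of the 9 were in 1 cell. The values of these 3 libraries without lung epithelium were below those of the other 4, but they rest on very few cells. With every cell thinned to 1500 UMIs, 74.0% of basophil-like cells (64.0 to 82.4) held a Csf1 UMI, against 0.0415% of reticulocyte-like cells, the class in which the gene was lowest. All 7 markers of the basophil list were found in at least 10% of these cells.

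Next came the eosinophil-like cells at 464 CPM, described further on, and then neutrophil-like cells at 249.2 CPM of Csf1, with a wide spread over libraries. The level was 335 CPM in library 1, 195 CPM in library 2 and 248 CPM in library 3, against 892 CPM in library 7 and 53.6, 128 and 43.3 CPM in libraries 4, 5 and 6. Library 7 was above every other and libraries 4 to 6 below every other. Within cluster 8, the largest of the neutrophil-like clusters, library 7 held 1384 Csf1 UMIs in 461 cells, or 1005 CPM (952 to 1059), and again lay above the other 5 libraries with at least 20 cells of it, which ranged from 78.7 to 475.5 CPM. The ratio of basophil-like to neutrophil-like cells was 7.48 over all libraries, 5.12 (4.03 to 6.54) in library 1 and 8.56 (6.96 to 10.5) in library 2. The intervals did not overlap, but they leave out the spread between cells. In library 1, 37 of the 221 basophil-like Csf1 UMIs were in 1 cell, and in library 2, 32 of 144 were. Whether the ratio differed beyond that spread was not tested.

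The stromal and endothelial classes held Csf1 at lower levels but in many cells. Mesothelial cell-like cells were at 242 CPM from 206 UMIs. Of these UMIs, 96 came from the 10 such cells of library 7, with 46 in 1 cell. In library 3, with 27 such cells, the level was 165 CPM. Adventitial fibroblast-like cells were at 126 CPM, with 122 CPM in library 2 and 134 CPM in library 3. Alveolar fibroblast-like cells were at 50.7 CPM, ranging from 42.5 CPM in library 2 to 89.5 CPM in library 1. General capillary endothelial cell-like cells were at 71.1 CPM. Their level ran from 55.3 CPM (47.7 to 63.7) in library 1 to 88.8 CPM (78.7 to 99.9) in library 3, and these intervals did not overlap.

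Among macrophages, Csf1 was higher in the class marked by Arg1, the arginase of alternatively activated macrophages, than in alveolar macrophage-like cells. The Arg1 macrophage-like cells were at 49.3 CPM and the alveolar macrophage-like cells at 5.54 CPM, a pooled ratio of 8.90 (7.72 to 10.3). The alveolar level was 4.97, 5.89, 0.811 and 10.5 CPM in libraries 1, 2, 3 and 7. Library 3 held 842 of these alveolar cells but only 6 Arg1 macrophage-like cells, so it bore almost only on the alveolar side. Within a library the ratio was 7.71 in library 1, 6.87 in library 2 and 6.46 in library 7, each below the pooled ratio. These were the 3 libraries with at least 20 Arg1 macrophage-like cells, and each interval lay above 5.

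By share of all Csf1 UMIs, the sources differed between libraries. Neutrophil-like cells gave 32.6% of the 8356 Csf1 UMIs, general capillary endothelial cell-like cells 13.7%, alveolar fibroblast-like cells 11.97%, basophil-like cells 9.9% and Arg1 macrophage-like cells 9.7%. The basophil-like cells made up 0.292% of all cells. In library 1 the largest source was the Arg1 macrophage-like class, at 27.1%, followed by the basophil-like class at 19.9%. In library 2 the general capillary class led at 24.1%, with alveolar fibroblast-like cells at 22.5%. Neutrophil-like cells led in library 3 with 31.1% and in library 7 with 55.6%. In libraries 4, 5 and 6 they gave 75.0%, 75.4% and 61.7%. Such shares move with the number of cells of each class that entered a library, which dissociation can set, as well as with the level per cell.

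Il34, the second ligand of CSF1R, was sparse, with 421 UMIs in all. Its highest level was in pericyte-like cells, which wrap capillaries, at 39.97 CPM (25.6 to 59.5) from 24 UMIs, with 30.8 CPM in library 2 and 44.3 CPM in library 3. Alveolar type 2 cell-like cells, the surfactant-making epithelium, were at 22.3 CPM and nearly even over libraries, at 18.3, 22.1, 23.4 and 25.5 CPM in libraries 1, 2, 3 and 7. The intervals of all 4 overlapped. Mesothelial cell-like cells were at 17.6 CPM from 15 UMIs, 8 of them in 1 cell of library 3. Smooth muscle cell-like cells were at 11.6 CPM and adventitial fibroblast-like cells at 9.49 CPM. Club cell-like cells were at 7.04 CPM and alveolar fibroblast-like cells at 5.99 CPM. All of these are structural classes. Alveolar type 2 cell-like cells held 36.1% of the Il34 UMIs and alveolar fibroblast-like cells 28.0%. No Il34 UMI was found in 13 of the 30 classes, and 3 UMIs in the 29965077 UMIs of the reticulocyte-like cells, the most that a count of 0 allows, would be 0.1 CPM.

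Csf2, the gene of GM-CSF, came almost wholly from a pair of classes. Alveolar type 2 cell-like cells held 121 of its 291 UMIs (41.6%) and T cell-like cells 156 (53.6%), and 23 of the 30 classes had none. In alveolar macrophage-like cells, 0 Csf2 UMIs were found among 45672794, which allows up to 0.0657 CPM.

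The epithelial level of Csf2 was 17.8 CPM (14.7 to 21.2) over all libraries. It was 7.71 CPM in library 1, 25.6 CPM in library 2, 14.8 CPM in library 3 and 10.5 CPM in library 7, the last from 7 UMIs in 27 cells. Library 2 was the highest, and its interval (20.1 to 32.3) overlapped those of libraries 3 and 7 but not that of library 1. At 1500 UMIs per cell, 4.08% of alveolar type 2 cell-like cells held a Csf2 UMI, against 0 of 2330 general capillary endothelial cell-like cells, which allows up to 0.129%.

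In T cell-like cells the Csf2 level was 10.1 CPM over all libraries, and library 7 stood apart. Its level was 55.2 CPM, against 10.1, 5.49 and 8.30 CPM in libraries 1, 2 and 3 and 1.31, 0.403 and 1.15 CPM in libraries 4, 5 and 6. The same library was highest within cluster 17, the T cell-like cluster with most Csf2, at 98.6 CPM (78.4 to 122) from 82 UMIs in 142 cells, against 19.2, 15.1, 30.9 and 3.9 CPM in libraries 1, 2, 3 and 5. The T cell-like class held 87.9% of the Csf2 UMIs of library 7 and 75.0% of those of library 1. These were 87 UMIs in 30 cells of library 7 but 30 UMIs in only 5 cells of library 1. In library 3 the 19 Csf2 UMIs of T cell-like cells were also in 5 cells. In libraries 2 and 3 the larger source was the alveolar type 2 cell-like class, with 80.9% and 63.0%.

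The T cell-like cells with Csf2 had other marker genes than the rest of their class. Of 55 such cells, 45.5% had a UMI of Cd3e, a chain of the T cell receptor complex, against 87.4% of the other 2000. Gata3, a factor of type 2 lymphocytes, was found in 63.6% against 36.7%, and Il1rl1, the IL-33 receptor, in 43.6% against 8.55%. Il2ra was found in 74.5% against 13.6% and Cxcr6 in 89.1% against 35.6%. The median depth was 5794 UMIs in cells with Csf2 and 6369 UMIs in those without, so the cells with Csf2 were not the deeper ones. Library 7 held 30 of the 55 cells but 203 of the 2000, so the shares were also taken within it. There Cd3e was found in 43.3% against 83.3%, Il2ra in 80.0% against 27.6%, Cxcr6 in 90.0% against 55.7%, Il1rl1 in 12 of 30 cells against 21.7% and Gata3 in 63.3% against 52.2%. In the other 6 libraries together, with 25 cells against 1797, Gata3 was found in 64.0% against 34.9% and Il1rl1 in 48.0% against 7.07%. All 5 shares kept their direction in both, and the gaps of Gata3 and Il1rl1 were smaller within library 7.

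No cluster was assigned to innate lymphoid cells. The 257 T cell-like cells with at least 3 markers from the list for type 2 innate lymphoid cells held 121 of the 156 Csf2 UMIs, at 53.1 CPM (44.0 to 63.4), and the 1798 with fewer held 35, at 2.66 CPM. Kit, which innate lymphoid cells can carry, was at 42.97 CPM in the 257 cells and 2.66 CPM in the rest. The median depths were 6285 and 6368 UMIs. Csf2 was higher in the marked cells within library 7, at 138 CPM in 69 cells against 22.9 CPM in 164, and in the other libraries, at 32.6 against 0.749 CPM. These cells were split by markers of the same cells and are described as a range, not as a cell type. Another 82 T cell-like cells had at least 3 markers of gamma delta or type 17 T cells, with Csf2 at 27.6 CPM, and a cell could fall in both sets.

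**Figure D2:**
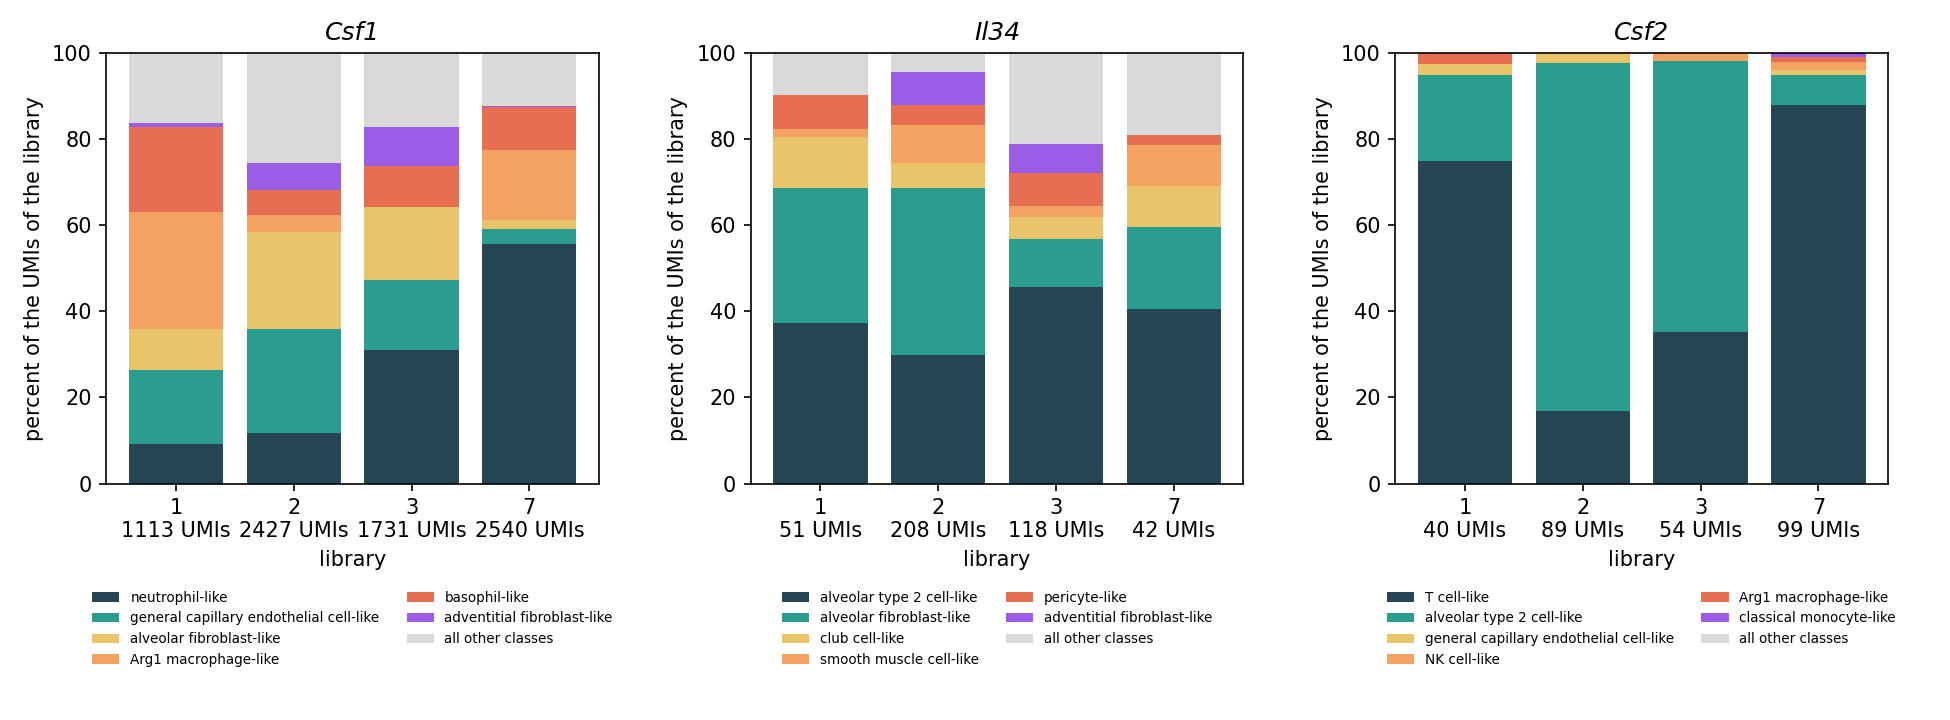
Stacked bars of the percent of each library's UMIs of Csf1, Il34 and Csf2 that came from each class, for the 4 libraries with lung epithelium (the number of UMIs stands under each bar). The Csf2 bar of library 7 is mostly T cell-like (87.9%) and that of library 2 mostly alveolar type 2 cell-like (80.9%), while the neutrophil-like part of the Csf1 bars runs from small in library 1 to 55.6% in library 7.

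Csf1r, the receptor for both CSF1 and IL-34, was highest in monocytes and in macrophages that express complement C1q. Nonclassical monocyte-like cells, the patrolling subset, were at 1021 CPM and lay between 913 and 1084 CPM over the 7 libraries. C1q macrophage-like cells were at 825 CPM, with 690, 931, 935 and 837 CPM in libraries 1, 2, 3 and 7. Classical monocyte-like cells were at 559 CPM and lay between 507 and 661 CPM. The classical to nonclassical ratio was 0.548 over all libraries and between 0.504 and 0.699 in each of the 7, so this order held everywhere. Plasma cell-like cells were lowest, at 2.46 CPM.

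Alveolar macrophages carried far less Csf1r. The alveolar macrophage-like class was at 126 CPM, with 146, 129, 97.9 and 139 CPM in libraries 1, 2, 3 and 7, and the Arg1 macrophage-like class was at 206 CPM, with 234, 181 and 180 CPM in libraries 1, 2 and 7. Every one of these values lay under every C1q macrophage-like value. The alveolar to C1q ratio was 0.153 (0.148 to 0.159), and by library it ran from 0.105 in library 3 to 0.211 in library 1. The Arg1 to alveolar ratio was 1.63, and 1.61, 1.40 and 1.30 in libraries 1, 2 and 7. The pooled ratio lay above each of these and took in library 3, which had only 6 Arg1 macrophage-like cells. In cells thinned to 1500 UMIs, a Csf1r UMI was found in 78.5% of nonclassical monocyte-like, 68.8% of C1q macrophage-like, 57.0% of classical monocyte-like, 24.2% of Arg1 macrophage-like and 16.8% of alveolar macrophage-like cells, against 0.784% of plasma cell-like cells.

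Csf1r was also counted in neutrophil-like cells, at 180 CPM, and part of this went with 1 mixed cluster. Cluster 35, which was named neutrophil-like but also held classical monocyte markers at 4896 CPM, was at 517 CPM, against 125 CPM in cluster 8 and 81.9 CPM in cluster 20. The part of free RNA or of doublets in this level was not tested.

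Csf2ra, the alpha chain that makes the GM-CSF receptor specific, was the most evenly spread member. Nonclassical monocyte-like cells were highest at 331 CPM, followed by C1q macrophage-like (266 CPM), Arg1 macrophage-like (266 CPM), classical monocyte-like (260.6 CPM), type 1 conventional dendritic cell-like (245 CPM) and alveolar macrophage-like cells (243 CPM). The last 5 of these differed by little: the alveolar to C1q ratio was 0.913, above 1 in libraries 2 and 7 (1.09 and 1.06) and below it in libraries 1 and 3 (0.683 and 0.786). Neutrophil-like cells were at 222 CPM, eosinophil-like cells at 214 CPM and type 2 conventional dendritic cell-like cells at 205 CPM. Reticulocyte-like cells were lowest at 1.97 CPM.

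Csf2rb, the beta chain shared by the receptors for GM-CSF, IL-3 and IL-5, separated the same macrophage classes that Csf2ra did not. Alveolar macrophage-like cells were at 377 CPM, with 329, 369, 382 and 420 CPM in libraries 1, 2, 3 and 7. Arg1 macrophage-like cells were at 251.1 CPM, with 238, 311 and 243 CPM in libraries 1, 2 and 7, and C1q macrophage-like cells were at 125 CPM. The alveolar to C1q ratio was 3.02 (2.83 to 3.22) over all libraries and 2.19, 3.74, 3.12 and 3.31 in libraries 1, 2, 3 and 7. The alveolar to Arg1 ratio was 1.502, and it ran from 1.19 in library 2 to 1.72 in library 7. The direction was thus the opposite of that of Csf1r in the same cells and libraries. Alveolar macrophage-like cells also held 43.4% of all Csf2rb UMIs.

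**Figure D3:**
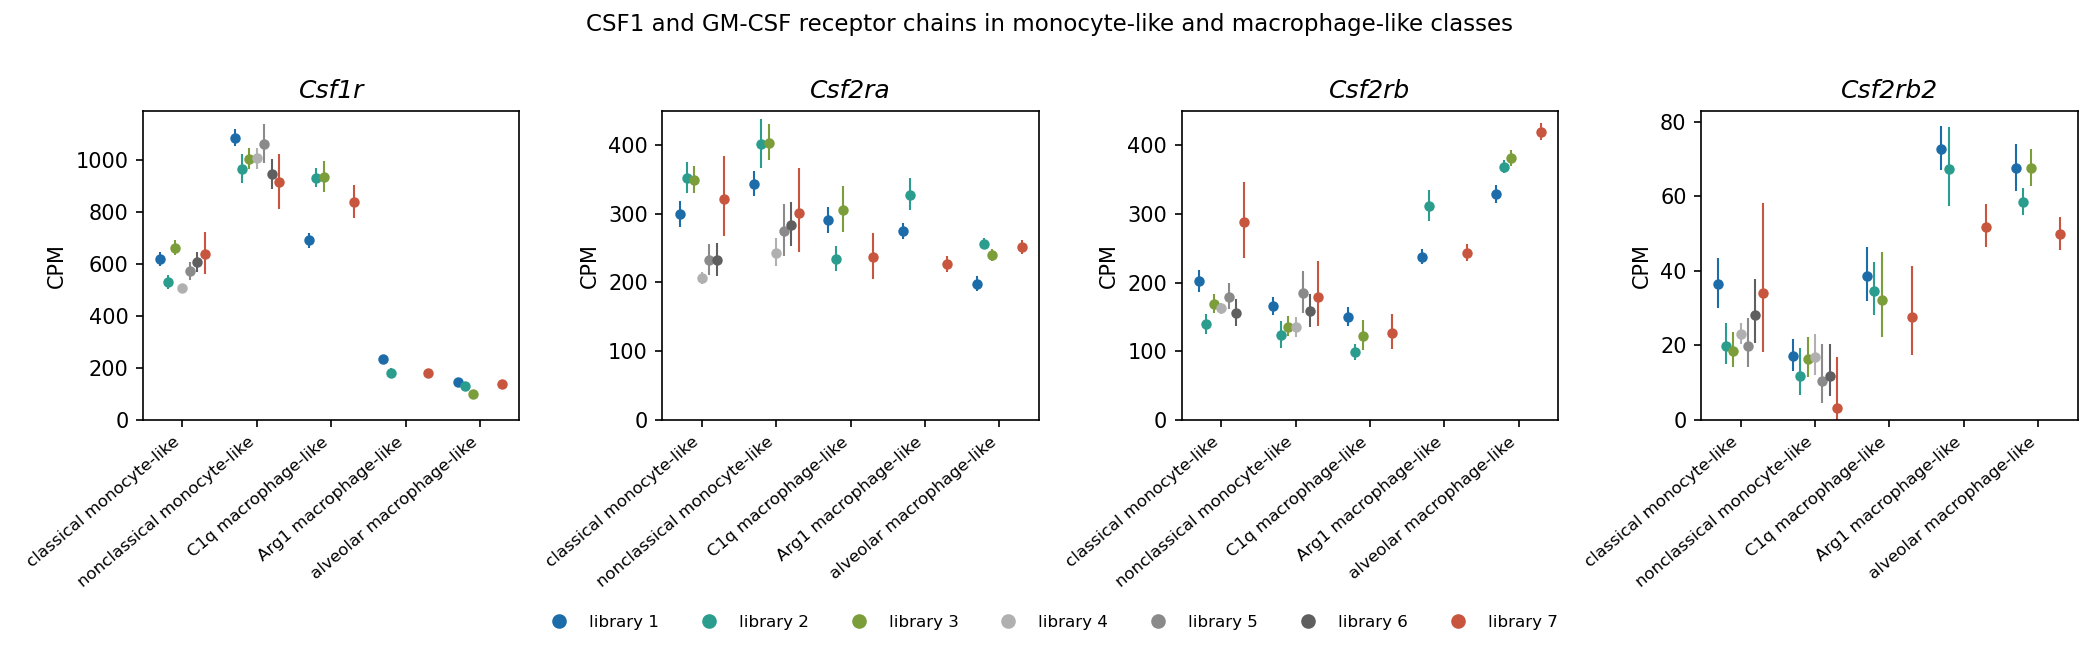
Level (CPM) of Csf1r, Csf2ra, Csf2rb and Csf2rb2 in 5 monocyte-like and macrophage-like classes, 1 point per library with at least 20 cells of the class and bars for the 95% counting interval. From the C1q macrophage-like to the alveolar macrophage-like class, Csf1r falls in each of 4 libraries (ratios 0.105 to 0.211), Csf2rb rises in each (2.19 to 3.74) and Csf2ra goes both ways.

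Above the macrophages, the highest Csf2rb levels were in basophil-like cells and in mature dendritic cell-like cells, which migrate to lymph nodes. Basophil-like cells were at 1426 CPM (1316 to 1541), with 1646 CPM in library 1 and 1400 CPM in library 2. Mature dendritic cell-like cells were at 525 CPM, with 479, 330, 569 and 679 CPM in libraries 1, 2, 3 and 7, a spread that overlapped the alveolar macrophage-like range. No Csf2rb UMI was found in mesothelial cell-like cells, which allows up to 3.52 CPM. Thinned to 1500 UMIs, 82.3% of basophil-like, 50.4% of mature dendritic cell-like and 39.7% of alveolar macrophage-like cells held a UMI.

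Neutrophil-like cells were at 292 CPM of Csf2rb, and library 7 was again the highest. The level was 220, 283 and 326 CPM in libraries 1, 2 and 3, then 143, 195 and 205 CPM in libraries 4, 5 and 6, and 647 CPM in library 7. Within cluster 8 the level of library 7 was 700 CPM (656 to 745), and the other 5 libraries lay between 245 and 364 CPM. In library 7 the neutrophil-like level was 1.54 times the alveolar macrophage-like level, whereas in libraries 1, 2 and 3 it was 0.669, 0.768 and 0.852 times that level.

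Csf2rb2, a neighbouring mouse gene for an IL-3-specific beta chain, followed Csf2rb at lower counts. Basophil-like cells were at 502 CPM (438 to 573), with 715 CPM in library 1 and 359 CPM in library 2, and mature dendritic cell-like cells at 135 CPM, with 103, 116, 197 and 160 CPM in libraries 1, 2, 3 and 7. Arg1 macrophage-like cells were at 64.3 CPM and alveolar macrophage-like cells at 60.2 CPM. By library, the Arg1 values of 72.8, 67.4 and 51.9 CPM in libraries 1, 2 and 7 overlapped the alveolar values of 67.5, 58.6 and 49.99 CPM.

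The share of Csf2rb2 in the UMIs of both beta chains was not the same in every class. It was 6.74% in immature neutrophil-like, 8.65% in neutrophil-like (7.74 to 9.64), 13.8% in alveolar macrophage-like (13.3 to 14.3), 20.4% in Arg1 macrophage-like (19.3 to 21.5) and 26.1% in basophil-like cells (23.1 to 29.1). Large-vessel endothelial cell-like cells had the highest share, 41.7% (32.3 to 51.5), from 45 and 63 UMIs, but this rested on library 1, where 7 cells held 31 of the 45 Csf2rb2 UMIs and 1 of them held 14. Without library 1 the share was 23.3% (13.4 to 36.04), from 14 and 46 UMIs, and overlapped that of basophil-like cells. The genes are near-identical copies in part, so reads could be split or lost between them: no stretch of 91 bases in the last 1000 bases of the longest transcript of Csf2rb occurred in that of Csf2rb2, and in the last 2000 bases 8 of 1910 did. The 3′ assay reads mostly from the end, and the size of any misassignment was not tested.

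Csf3r, the G-CSF receptor, was the member most restricted to 1 class. Neutrophil-like cells were at 1977 CPM (1951 to 2004) and held 74.1% of all its UMIs, and 91.05% of these cells had a UMI at a depth of 1500. By library the level was 2121 CPM in library 1, 2463 CPM in library 2, 2405 CPM in library 3, 859 CPM in library 4, 1803 CPM in library 5, 1548 CPM in library 6 and 2901 CPM in library 7. Library 4 was far below the others. Immature neutrophil-like cells, which held granule genes of the bone marrow stages, were at 244 CPM. Of these 153 cells, 126 were in library 4. The pooled lead of 8.11 thus set neutrophil-like cells of all libraries against a class found mostly in library 4. Classical monocyte-like cells were at 107 CPM, and the neutrophil to classical monocyte ratio was 18.4 over all libraries and at least 8.31 in every library. Nonclassical monocyte-like cells were close to them at 100 CPM (94.7 to 106).

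The spread of Csf3r between libraries was smaller within cluster 8, where library 4 was not counted. Library 4 stayed the lowest in clusters 20 and 35. In cluster 8 the level was 2703, 2916, 3017, 2445, 2291 and 3135 CPM in libraries 1, 2, 3, 5, 6 and 7, and library 4 had fewer than 20 such cells. Cluster 20, present in libraries 4, 5 and 6, was at 990, 1863 and 1791 CPM, and the mixed cluster 35 at 895, 929 and 638 CPM in libraries 2, 3 and 4. In pericyte-like cells the 46.6 CPM came from 28 UMIs in 5 cells, 14 of them in 1 cell.

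**Figure D4:**
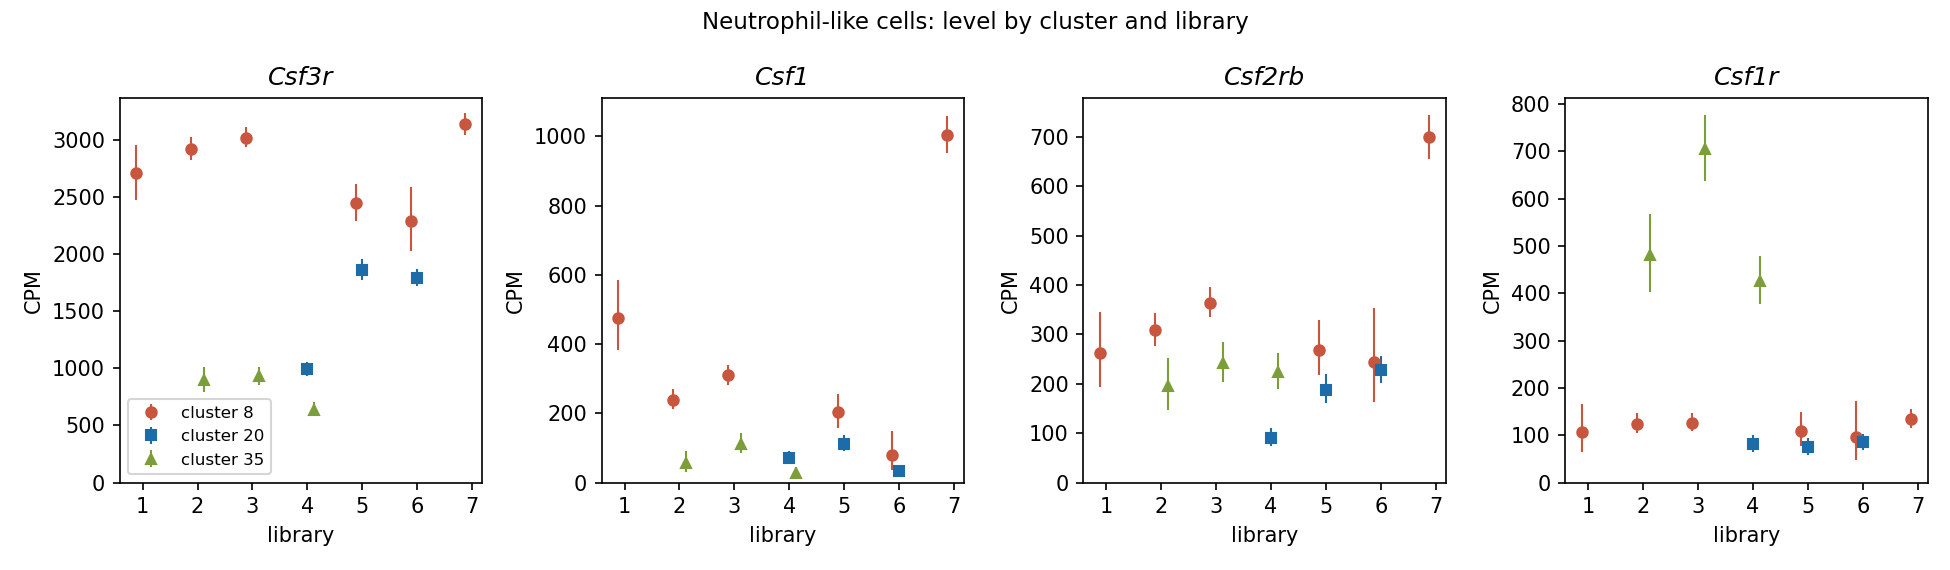
Level (CPM) of Csf3r, Csf1, Csf2rb and Csf1r in 3 clusters of neutrophil-like cells by library, with bars for the 95% counting interval. In cluster 8, Csf3r lies between 2291 and 3135 CPM in all 6 libraries shown, while Csf1 and Csf2rb reach 1005 and 700 CPM in library 7 and at most 475.5 and 364 CPM elsewhere.

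Flt3, the receptor that supports dendritic cell development, was highest in the 3 dendritic classes. Type 1 conventional dendritic cell-like cells, which present antigen to CD8+ T cells, were at 209 CPM, with 216, 179, 192 and 267 CPM in libraries 1, 2, 3 and 7. Mature dendritic cell-like cells were at 129 CPM, with 105, 111, 187 and 149 CPM, and type 2 conventional dendritic cell-like cells were at 119 CPM, between 97.6 and 226 CPM over the 7 libraries. Type 1 was above type 2 in libraries 1, 2, 3 and 7, those with at least 20 cells of both. The ratios ran from 1.56 to 2.03, with 1.76 over all libraries. The type 2 class pooled cluster 18, at 146 CPM, with cluster 28, at 81.7 CPM, and type 1 lay above both. Cluster 28 also held neutrophil markers at 2311 CPM and C1q macrophage markers at 2109 CPM. The type 2 and mature classes overlapped. The next class, classical monocyte-like cells, was at 16.4 CPM, and 4 classes had no Flt3 UMI. Classical monocyte-like cells held 9.76% of all Flt3 UMIs, and 56.2%, 32.3% and 30.4% of those in libraries 4, 5 and 6. A UMI was found in 29.05% of type 1 cells at 1500 UMIs, against 0.386% of general capillary endothelial cell-like cells.

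Among the 30 classes, Kit had its highest level in the lung capillary endothelium. No class was assigned to mast cells or blood progenitors, so their Kit level could not be set beside it. General capillary endothelial cell-like cells, which line most alveolar capillaries, were at 465 CPM and held 66.0% of all Kit UMIs, with 529, 425, 486 and 507 CPM in libraries 1, 2, 3 and 7. Aerocyte-like capillary cells, specialised for gas exchange, were at 177 CPM, with 171, 166, 206 and 165 CPM. The groups of libraries did not overlap, and the ratio was 2.63 (2.44 to 2.85) over all libraries and between 2.36 and 3.09 in each of these 4. Large-vessel endothelial cell-like cells were at 97.6 CPM, with 131, 104 and 108 CPM in libraries 1, 2 and 7 and 25.2 CPM in library 3. A Kit UMI was found in 48.8% of general capillary cells at 1500 UMIs and in 0 of 4823 reticulocyte-like cells, which allows up to 0.0622%.

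Beyond the endothelium, Kit was present in type 1 conventional dendritic cell-like cells at 102 CPM, with 114, 76.3, 94.9 and 145 CPM in libraries 1, 2, 3 and 7. This was 1.999 times the level of type 2 conventional dendritic cell-like cells, 51.2 CPM, and the ratio lay between 1.41 and 2.85 by library. Pericyte-like cells were at 163 CPM, with 111 CPM in library 2 and 226 CPM in library 3, in a cluster that also held general capillary markers at 1759 CPM. Basophil-like cells were at 52.0 CPM from 23 UMIs in 5 cells, 12 of them in 1 cell, and 1 cell of this class had at least 3 mast cell markers.

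The paper recognized its eosinophils by genes that include Ccr3, Il5ra, Epx, Prg2, Alox15, C1qa and Ctsl. It also compared their clusters with the RNA of sorted eosinophils, and marker transcripts with ECP staining in lung tissue. Cells marked by C1q genes were named C1q macrophage-like here, and no class was matched to the clusters of the paper. The eosinophil-like class could be described only at low depth. It had 242 cells with a median of 555 UMIs, 206 of them in library 7 and 31 in library 1, and 4 of its 6 markers were in at least 10% of the cells. The 7 neutrophil markers together stood at 9050 CPM in this class, more than in any cluster outside the neutrophil-like and immature neutrophil-like ones, and at 15761 CPM in library 1 and 7943 CPM in library 7. Csf1 stood at 464 CPM from 87 UMIs, but 48 of these were in 1 cell of library 2. Libraries 1 and 7 alone gave 36 Csf1 UMIs, all in library 7, or 228 CPM (160 to 316). In the same 237 cells Csf2rb, through which IL-5 signals to eosinophils, was at 298 CPM (219 to 397), Csf1r at 190 CPM, Csf2ra at 190 CPM and Csf2rb2 at 63.5 CPM. Csf3r was at 25.4 CPM from 4 UMIs, and no Il34 or Csf2 UMI was found. Csf1 and Csf2rb were also the members that were high in the neutrophil-like cells of library 7, and the part of neutrophil RNA in these levels was not tested.

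Pairs of members were counted in the same cells after thinning to 1500 UMIs, as a description. Some overlap arises from the share of each member alone, and whether the counts exceed it was not tested. Of 2960 alveolar macrophage-like cells, 892 held Csf2ra and 1174 Csf2rb, the 2 chains of 1 receptor, and 390 held both, which was 43.7% of the first and 33.2% of the second. Of 96 basophil-like cells, 71 held Csf1, 79 held Csf2rb and 62 held both. Of 2267 neutrophil-like cells, 499 held Csf1, 2064 held Csf3r and 467 both, where Csf3r was found in most cells of the class. Of 2291 classical monocyte-like cells, 1307 held Csf1r, 744 held Csf2ra and 439 both. Of 358 type 1 conventional dendritic cell-like cells, 104 held Flt3, 54 held Kit and 17 both.

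Of 28 further genes of the same pathways, 25 passed the minimum of 20 CPM and 20 UMIs and 6 of these 25 had a leading class, close to the 23.1% of all genes. Among the ligands, Kitl, which encodes stem cell factor, was at 1325 CPM in aerocyte-like capillary cells, the neighbours of the Kit-rich general capillary cells, and 310 CPM in pericyte-like cells. Flt3l was highest in adventitial fibroblast-like cells at 114 CPM. Il5 was at 4.21 CPM in T cell-like cells from 65 UMIs, Csf3, the gene of G-CSF, at 4.02 CPM in neutrophil-like cells from 44 UMIs, and no Il3 UMI was found in any kept cell. These last 3 were the genes that missed the minimum.

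The receptor chains Il3ra and Il5ra, which pair with Csf2rb, differed in their highest class. Il3ra, the IL-3 receptor alpha chain, was highest in basophil-like cells at 102 CPM, which was the highest class of Csf2rb as well. Il5ra, the IL-5 receptor alpha chain, was at 30.6 CPM in B cell-like cells. In eosinophil-like cells Il5ra was at 26.7 CPM (8.66 to 62.3), from only 5 UMIs. Of the signalling genes, Stat5a, which acts downstream of the GM-CSF receptor, was at 260.6 CPM in mature dendritic cell-like cells against 60.6 CPM in the next class. Shc1 led in lymphatic endothelial cell-like cells at 132 CPM and Pik3cd in eosinophil-like cells at 374 CPM. Of the inhibitors, Cish, a STAT5 target that damps cytokine receptors, led in eosinophil-like cells at 464 CPM. Of the transcription factors, Cebpe, needed for late granulocyte maturation, led in eosinophil-like cells at 619 CPM, ahead of immature neutrophil-like cells at 264 CPM. In the 237 eosinophil-like cells of libraries 1 and 7 these 3 leads were as high or higher, with Pik3cd at 406 CPM, Cish at 546 CPM and Cebpe at 736 CPM, and no cell held more than 5 UMIs of any of them. Pparg and Bhlhe41, both factors of the alveolar macrophage, were highest in alveolar macrophage-like cells at 115 and 210 CPM without reaching 2 times the next class.

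The genes most like each member were taken by Pearson correlation of log2(CPM + 10) over the 30 classes, out of 12198 genes, as a description with no test, since the classes share libraries. For Csf1r they were Clec4a1 (0.94), Cd300c2 (0.94) and Clec4a3 (0.93), and for Csf2ra they were Cd300c2 (0.93), Clec12a (0.91) and Gpr35 (0.91). Csf2rb was most like Spi1 (0.89), Lilr4b (0.88) and Ncf1 (0.87), and Csf2rb2 most like Ccl9 (0.86), Lilr4b (0.85) and Rgs1 (0.82). Csf3r was most like Clec4e, Trem1 and A530064D06Rik (0.90 each). For Flt3 they were Htr7 (0.92), Tlr11 (0.89) and Timd4 (0.88), and for Kit they were Notch4 (0.88), Rtl8b (0.86) and Rtl8a (0.84). Among the ligands, Il34 was most like Daam2, Rerg and Plekhh2 (0.90 each) and Csf2 most like Nrn1 (0.90), Acoxl (0.85) and Gm6213 (0.85). Csf1 had no gene as close, with Eef2k (0.77), Ier3 (0.76) and Gm12840 (0.76).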

How the data were processed

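Single-cell RNA from mouse lungs was measured with a 10x Chromium 3′ assay. The authors' deposited values are raw counts, whole UMIs per gene and barcode; the labels name Cell Ranger, STAR and build mm10, and the supplementary methods give version 3.1.0 of Cell Ranger and state that reads were down-sampled as required. The matrix was treated as 1 sample. Its 7 libraries are numbered and not tied to groups.

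From the counts, barcodes with over 10% mitochondrial UMIs were removed. Each cell was set to a total of 10000 before the log was taken. Leaving out the 10 members, 2000 variable genes were reduced to 30 principal components, in which libraries were aligned on mutual nearest neighbors (20 each). Leiden clustering was run with leidenalg 0.10.2 and python-igraph 0.11.9 at a resolution of 0.8. Clusters took the class of the best of 39 marker lists, with at least 3 markers in 10% of the cells, and 9 lists took none. Scrublet (scanpy 1.11.5) called 709 cells (2.11%) as doublets, which were kept. Python 3.11.15, numpy 2.4.6, scipy 1.17.1, pandas 2.3.3, scikit-learn 1.9.0 and matplotlib 3.10.9 were used.

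Intervals of CPM were exact Poisson at 95%, those of shares exact binomial, those of ratios exact conditional binomial, and a count of 0 was read as up to 3. Per-library values needed 20 cells, except where a smaller number of cells is given with them. Shares of cells with a member UMI were taken after thinning each cell to 1500 UMIs, which left out shallower cells. Shares of UMIs by class or beta chain, and the marker shares of T cell-like cells, used full counts. The steps were tested on simulated data. The genes named were all members, the pathway genes that led or stood first in their role, and the 3 genes nearest to each member. The members, lists and alternatives were chosen with earlier results of these data known. Alternatives changed the filter, doublets, alignment, resolution, components, depth, weights and libraries.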

Additional observations from a re-analysis of the deposited data

Results flagged for a closer look

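The 3726 barcodes removed for mitochondrial UMIs above 10% entered no comparison, and they held member UMIs above the limit that a count of 0 allows. Kit was at 62.0 CPM there against 39.0 CPM in the kept cells, and Il34 at 2.42 against 1.44 CPM. Csf1r stood at 88.3 against 162 CPM, Csf3r at 27.6 against 100.2 CPM and Flt3 at 7.18 against 14.1 CPM. Csf1 was at 24.5 against 28.7 CPM, Csf2ra at 115 against 130 CPM, Csf2rb at 116 against 136 CPM and Csf2rb2 at 23.6 against 23.8 CPM. Csf2 had 3 UMIs, at the limit. The removed barcodes were assigned to no class, so their mix of cells was not tested.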

How the results depend on the processing

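The number of members with a leading class was 5, and over 19 alternatives it lay between 4 and 6. It was 6 with a mitochondrial limit of 5%, where Csf2 was added, and 6 with the study's filter on UMIs and genes, where Il34 was added. With each library left out in turn it ranged from 4 to 5, and without library 7 Csf1 lost its lead, with basophil-like cells at 1.45 times the eosinophil-like class, whose value there rests mostly on 1 cell. The leads of Csf2rb, Csf2rb2, Csf3r and Kit held in all 19, with ratios of 2.08 to 3.98, 2.03 to 4.85, 5.65 to 18.6 and 2.27 to 4.14, and that of Csf1 in 18, with 1.45 to 10.3. The order of the highest classes turned for Flt3 with 15 principal components (a log2 ratio of -0.087, where a further dendritic class appeared) and for Csf2ra without library 7 (-0.14, against the eosinophil-like class, in a range of -0.14 to 0.34 with each library left out). In the eosinophil-like class, 10 Csf2ra UMIs were in 1 cell of library 2. Il34 had no value in 4 alternatives that formed no pericyte-like class. The alternatives without libraries 4 to 6, without 6 clusters of mixed markers and without shared barcodes were chosen after seeing the data, and each gave 5. No paired analysis was possible because the library numbers are not tied to the labelled samples and each of the 4 single-cell groups has 1 sample. Counting error limits Il34, Csf2 and the eosinophil-like class most.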
